A study of Mus musculus with 4 samples.

Results

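The genes described here move bicarbonate, chloride and water in the ducts of the exocrine pancreas. They were chosen by name: every non-control probe of the 4 arrays whose gene name was Cftr, Slc26a3, Slc26a6, Slc4a4, Slc4a2, Slc12a2, Aqp1, Aqp5, Aqp8 or Aqp12. This gave 10 genes with 17 probes, out of 34821 gene names and 55681 probes on the array.

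Duct cells answer the hormone secretin with a rise in cyclic AMP, which opens the apical chloride and bicarbonate channel CFTR. Bicarbonate enters the cell across the basolateral membrane with sodium, leaves through CFTR and the apical chloride exchangers of the SLC26 family, and water follows through aquaporins. Aqp8 and Aqp12 are known chiefly from acinar cells, the enzyme-secreting cells that the ducts drain.

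The study compared islet-like clusters, grown from mesenchymal-like cells that had been cultured out of the pancreas, with islets of Langerhans, with 2 single-colour Agilent arrays for each. All samples came from male Swiss albino mice aged 10 to 12 weeks, and pancreata were digested in groups of 2 to 4 mice. The clusters were taken after 10 days in serum-free medium with insulin, transferrin and selenium on low-adherence dishes, with 0.3 mM taurine from day 3 and 100 mM nicotinamide, 3 mM taurine and the peptide GLP-1 from day 7. The islets were flushed from flasks seeded with the digest. The islet titles give 48 h in culture while other labels call the islets freshly isolated. No array held the starting cells and none held isolated ducts. Whether the 2 samples of a group were separate pools of mice is not stated, so each p-value covers array-to-array spread alone, which may be technical.

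Between 59.7% and 63.6% of the 59305 non-control spots were well above background on each array, and no spot was saturated. None of the 68 spots of the 10 genes was marked as non-uniform or saturated. The values below are log2 processed signal minus the 75th percentile of the array, given for clusters replicate 1, clusters replicate 2, islets replicate 1 and islets replicate 2 in that order. A value of 0 is thus the brightness of the 75th percentile, and differences are clusters minus islets. Probes differ in how they hybridise, so a level is compared only with the same probe on other arrays.

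Markers of other pancreatic cell types were present in the islet samples. Each of the 10 acinar, 10 duct and 10 endothelial markers was detected well above background in both islet samples. All 10 acinar markers were lower in clusters, where Cpa1, Pnlip, Ptf1a and Bhlha15 were well above background on neither array. The summed acinar signal was 0.83 and 0.69 in clusters against 11.74 and 12.34 in islets (log2). Of the duct markers 9 were lower in clusters, and Epcam, Krt7, Onecut1 and Tff2 were well above background on neither cluster array. The summed duct signal was nevertheless 9.31 and 9.09 in clusters against 8.35 and 8.13 in islets, since it was carried by the secreted phosphoprotein Spp1, the 1 duct marker that was higher there (9.31 and 9.08 against 6.26 and 6.17). All 8 islet hormone and secretory granule markers were lower in clusters (summed signal -0.18 and -0.81 against 7.48 and 4.90), and all 10 mesenchymal markers were higher (11.05 and 10.80 against 5.49 and 5.64). In RNA from whole samples, fewer cells of a type and less RNA per cell cannot be told apart.

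The probe sequences show which bases were read. The 6 sequences below were chosen because the results turn on them, or because other probes of the same gene gave another result. They are given 5′ to 3′ on the plus strand, from the probe column of the deposited files, with positions on mm9. In Cftr the capitals mark a stop codon that ends an open frame of the probe, and in the pair of Slc4a4 probes they mark the 48 bases both share.
Cftr, chr6:18270974-18271033: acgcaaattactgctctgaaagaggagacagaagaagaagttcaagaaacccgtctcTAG
Slc4a4 first probe, chr5:89663826-89663885: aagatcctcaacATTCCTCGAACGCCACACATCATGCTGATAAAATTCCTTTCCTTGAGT
Slc4a4 second probe, chr5:89663838-89663897: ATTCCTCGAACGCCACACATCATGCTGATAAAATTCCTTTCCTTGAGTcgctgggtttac
Slc26a6 first probe, chr9:108763641-108763700: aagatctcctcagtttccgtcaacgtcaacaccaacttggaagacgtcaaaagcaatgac
Aqp5 first probe, chr15:99424655-99424714: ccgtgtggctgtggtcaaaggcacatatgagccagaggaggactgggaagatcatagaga
Aqp12, chr1:94908593-94908652: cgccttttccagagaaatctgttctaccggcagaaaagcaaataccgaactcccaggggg
Exon and untranslated region status on mm9 was not analysed here.

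Of the 10 genes, 9 were tested and Slc26a3 was not, because neither of its probes was well above background on any array. In the limma fit over all 24596 genes tested (Benjamini-Hochberg adjusted p under 0.05), 5 of the 9 were lower in clusters, 1 was higher and 3 did not pass. Over all genes tested the same rule called 54.8%, with 28.2% lower and 26.6% higher. The median log2 difference of the 9 was -1.41, beside -0.10 for all genes tested. It was -0.55 with normexp background correction, -0.79 with no brightness filter (10 genes) and -0.16 when only probes detected on each of the 4 arrays were kept (7 genes). Cftr and Aqp12 passed the brightness filter through the islet arrays alone and so could only enter the test where islets were bright. The 6 calls were not equally stable: Slc4a4, Aqp5, Aqp8 and Aqp12 were lower in the fit and under every alternative in which they were tested, whereas the calls of Cftr and Aqp1 rested on the scaling and on single arrays. Between 4 and 6 of the genes were called across the 17 alternatives, with 4 called (all lower, none higher) when arrays were scaled to the median, by quantiles or over probes detected on all arrays.

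**Figure D1:**
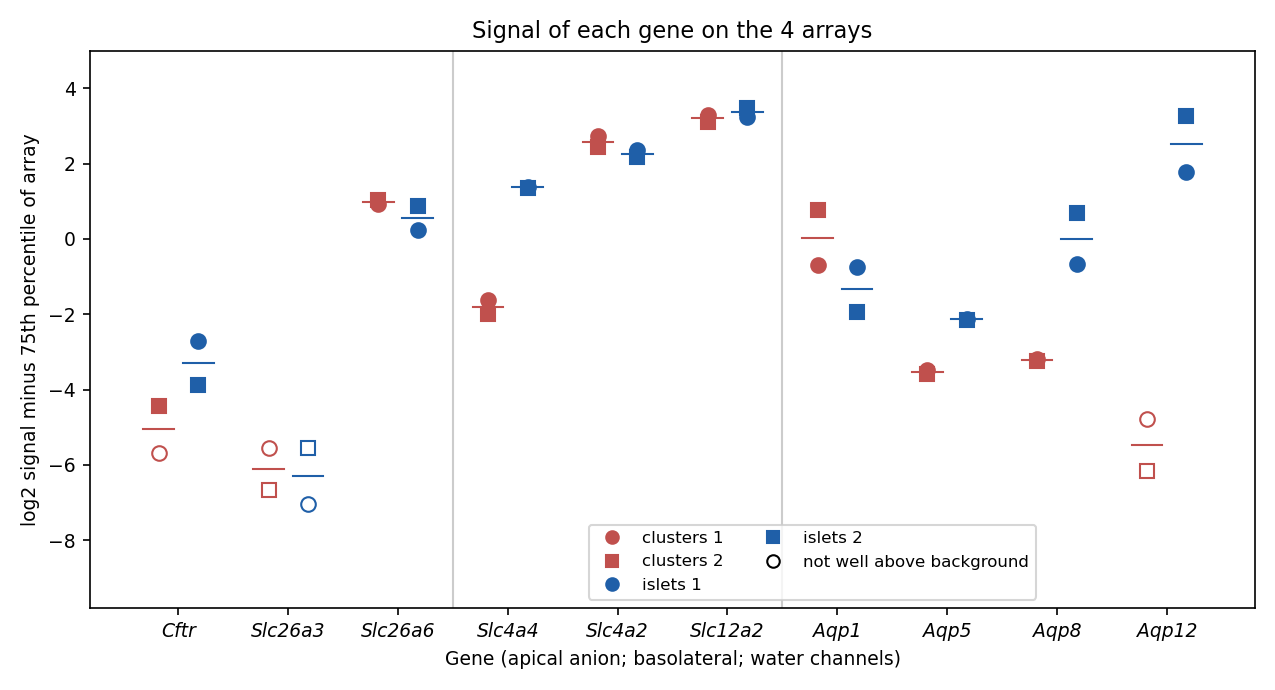
Signal of each gene on the 4 arrays (y axis, log2 signal minus the 75th percentile of the array), with clusters in red and islets in blue, circles for replicate 1, squares for replicate 2 and lines at the group means. Open symbols were not well above background. Cftr, Slc4a4, Aqp5, Aqp8 and Aqp12 lay lower on both cluster arrays than on either islet array. Slc26a6, Slc4a2 and Aqp1 lay higher on both, while Slc12a2 overlapped. Over all genes tested 79.9% did not overlap, 42.7% with lower and 37.2% with higher clusters.

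Cftr, the apical channel through which duct cells pass chloride and bicarbonate, was dim in all samples. Its single probe, shown above, lay at -5.69 and -4.43 in clusters and at -2.72 and -3.89 in islets. The probe was not well above background on clusters replicate 1, and its unscaled signal was 6.37, 17.99, 49.3 and 16.8 in the order given. The groups did not overlap, as was so for 79.9% of all genes tested (42.7% with lower and 37.2% with higher clusters), but clusters replicate 2 and islets replicate 2 were close. The difference was -1.75 ± 0.46 (SE, n = 2 arrays per group), or 3.37-fold lower in clusters, with a limma adjusted p of 0.0102. The call was lost under 10 of 16 alternatives, with differences from -2.38 to -0.55 and adjusted p from 0.000119 to 0.186 in limma. Without clusters replicate 1 the difference was -1.12 (adjusted p = 0.186), and without islets replicate 1 it was -1.17 (adjusted p = 0.0812). In the first fit, which took the percentile over spots, it was -1.80 with no call (limma adjusted p = 0.0669), and the percentile over probes used here was chosen after that fit had been seen.

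Slc26a3 and Slc26a6 exchange luminal chloride for bicarbonate at the apical membrane. Slc26a3 had 2 probes on chromosome 12, with unscaled signals of 2.16 to 6.99, none well above background, and no fold is given. The brightest Slc26a6 probe (chr9:108815322-108815380), well above background on all arrays, lay at 0.93 and 1.04 in clusters and at 0.23 and 0.87 in islets. The cluster values were the higher ones, by little in the case of islets replicate 2, and the difference of 0.44 ± 0.27 (SE) did not pass (limma adjusted p = 0.203). The other 2 Slc26a6 probes differed by -0.61 ± 0.31 and -0.13 ± 0.26 and did not pass either (limma adjusted p = 0.136 and 0.704 over probes). The first of these, shown above, lies 51056 bases before the second probe on mm9. With the gene's probes averaged the difference was -0.10, so its sign was not settled.

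Slc4a4, which encodes the sodium bicarbonate cotransporter that loads duct cells with bicarbonate, was lower in clusters. Its brightest probe, the second shown above, lay at -1.62 and -1.98 in clusters and at 1.38 and 1.36 in islets. Both islet arrays were nearly equal and far above both cluster arrays. The difference was -3.17 ± 0.24 (SE), or 8.995-fold (limma adjusted p = 3.91e-06). It passed under all 17 alternatives, with values from -3.36 to -2.54. The first probe differed by -3.11 ± 0.23 but shares 48 of its 60 bases with the second, so these 2 readings are not independent. The remaining probe (chr5:89668602-89668661), with only 15.0% G and C bases, lay at -3.82 and -3.38 in clusters and at -1.41 and -1.74 in islets. It was also lower (-2.03 ± 0.26, limma adjusted p = 0.000368 over probes). Of all 34974 probes tested 53.2% were called, 26.8% lower and 26.4% higher.

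The other basolateral carriers did not pass the test. Slc4a2, an anion exchanger that imports chloride in exchange for bicarbonate, lay at 2.73 and 2.44 in clusters and at 2.36 and 2.18 in islets. Its difference was 0.32 ± 0.24 (SE; limma adjusted p = 0.284), and between 0.13 and 0.51 under the alternatives. Slc12a2, the sodium, potassium and chloride cotransporter, lay at 3.29 and 3.12 in clusters and at 3.25 and 3.48 in islets. Here the groups overlapped, with a difference of -0.16 ± 0.24 (SE; limma adjusted p = 0.580) that ranged from -0.35 to 0.03. The difference between Slc4a4 and these carriers was not itself tested.

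**Figure D2:**
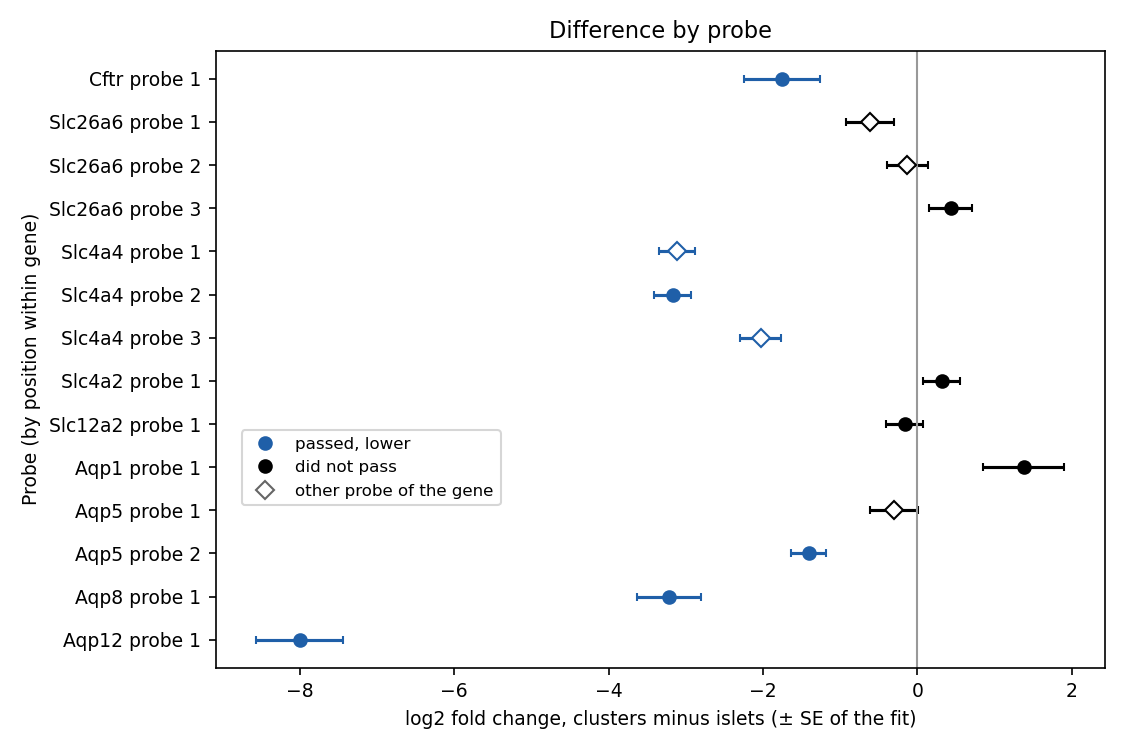
Difference between clusters and islets for each of the 14 probes that passed the brightness filter (x axis, log2 fold change with the SE of the fit over probes), blue where lower and past the threshold, black where not, diamonds for probes that did not stand for their gene. All 3 Slc4a4 probes lay below 0 and the 3 Slc26a6 probes lay on both sides of it.

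Of the 4 water channels 3 were lower in clusters and 1 was higher. By the same rule 28.2% of all genes tested were lower and 26.6% higher. Aqp1, a constitutively open water channel of duct cells and also of endothelium and red cells, lay at -0.69 and 0.77 in clusters and at -0.73 and -1.94 in islets. Clusters replicate 2 stood above the other arrays, and clusters replicate 1 differed little from islets replicate 1. The difference was 1.38 ± 0.50 (SE), or 2.60-fold higher in clusters, with a limma adjusted p of 0.0415 in the fit over genes and 0.0587 in that over probes. The call was kept under 5 of 17 alternatives. Without clusters replicate 2 the difference was 0.65 (adjusted p = 0.417), without islets replicate 2 it was 0.77 (0.319), and without clusters replicate 1 it was 2.11 (0.0561), all in limma. In the first fit, with the percentile over spots, it was 1.33 with no call (limma adjusted p = 0.162). Of the 5 alternatives that kept the call, 3 had 24995 to 49192 total degrees of freedom, against 9.06 in the fit reported. Beside this, the 10 endothelial markers were all lower in clusters, with summed signals of 2.01 and 1.72 against 4.62 and 4.59. Of 8 erythroid markers 5 were tested, 4 were lower and Slc4a1 did not pass, with summed signals of -2.04 and -2.10 against 0.09 and 2.49. Between the islet arrays the erythroid markers had a median 2.54 higher on replicate 2, where Aqp1 was 1.21 lower. Slc4a1 also stands in the list of SLC4 genes below. The part of endothelial or red cells in the Aqp1 values was not tested.

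Aqp5, an apical water channel of duct and gland cells, lay at -3.49 and -3.59 in clusters and at -2.13 and -2.14 in islets with its brighter probe (chr15:99425138-99425197). The arrays within a group were nearly equal and the groups were apart. The difference was -1.41 ± 0.23 (SE), or 2.66-fold lower in clusters (limma adjusted p = 0.000622), and it passed under all 17 alternatives, with values from -1.60 to -0.73. The other Aqp5 probe, shown above, did not pass. It lay at -3.91 and -4.05 in clusters and at -3.27 and -4.09 in islets, so that the groups overlapped and the difference was -0.30 ± 0.31.

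Aqp8, an acinar water channel, lay at -3.18 and -3.24 in clusters and at -0.67 and 0.69 in islets (chr7:130611453-130611512). Both islet arrays were above both cluster arrays, and islets replicate 2 was the highest. The difference was -3.22 ± 0.39 (SE), or 9.32-fold lower in clusters (limma adjusted p = 1.0e-04), and it passed under all 17 alternatives, with values from -3.90 to -2.06. The value of -2.06 came with normexp background correction, and the difference was -3.90 without islets replicate 1 and -2.54 without islets replicate 2. Its other probe (chr7:130606210-130606269) was not well above background on any array.

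Aqp12, an intracellular aquaporin of acinar cells, showed the widest gap of the 9 genes tested. It lay at -4.78 and -6.17 in clusters, well above background on neither, and at 1.79 and 3.26 in islets. The unscaled signal was 12.0 and 5.37 in clusters against 1126 and 2398 in islets. The fitted difference of -8.00 passed (limma adjusted p = 1.48e-06). The gene was at least 177-fold lower in clusters, a bound with no test of its own. It was taken on each cluster array against the higher of the probe's own signal and the dimmest signal still well above background. The bound was 106-fold from islets replicate 1 alone and 295-fold from islets replicate 2 alone. Under the 16 alternatives that tested it the fitted difference ranged from -8.74 to -4.75, against -8.00 in the fit reported. The value of -4.75 came with normexp and is a smaller fold than the bound.

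Aqp8 and Aqp12 were both higher on islets replicate 2 than on islets replicate 1, by 1.36 and 1.47. Of the 10 acinar markers 8 were also higher on replicate 2 and 2, the transcription factor genes Ptf1a and Bhlha15, were higher on replicate 1, and the median marker was higher on replicate 2 by 0.42. The duct markers were higher on replicate 1 by a median of 0.09, and the islet hormone and secretory granule markers by a median of 2.39. The brightest probes of Slc4a4 and Aqp5 differed between the islet arrays by 0.02 and 0.01, the other Slc4a4 probes by 0.16 and 0.33 and the other Aqp5 probe by 0.83. Cftr was higher on replicate 1 by 1.17. The part of acinar, duct or islet cells in these results was not tested.

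Upstream sequences of 9 of the 10 genes, in 11 windows of 250 bases, came from RefSeq on GRCm38.p6. Those of Aqp8 and Aqp12, 2 genes lower in clusters and known from acinar cells, are printed on the plus strand. Capitals mark the letters CANNTG, an E-box, and TTCCCA or its reverse TGGGAA. The acinar factor PTF1 is known to bind such elements as a pair, and the distance between them was not analysed. No mark is therefore called a PTF1 site.
Aqp8, chr7:123462044-123462293: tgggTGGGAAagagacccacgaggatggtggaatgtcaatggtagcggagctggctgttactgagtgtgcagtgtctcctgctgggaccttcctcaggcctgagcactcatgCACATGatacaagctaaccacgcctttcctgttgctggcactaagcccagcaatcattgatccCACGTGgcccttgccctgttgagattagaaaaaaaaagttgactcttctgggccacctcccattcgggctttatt
Aqp12, chr1:93006084-93006333: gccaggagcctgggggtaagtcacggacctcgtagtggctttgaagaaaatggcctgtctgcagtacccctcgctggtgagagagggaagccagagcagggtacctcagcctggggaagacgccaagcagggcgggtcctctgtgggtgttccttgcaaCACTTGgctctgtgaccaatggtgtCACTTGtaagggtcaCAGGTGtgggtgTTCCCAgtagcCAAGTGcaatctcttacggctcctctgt
The Aqp8 window held 2 E-boxes and the Aqp12 window 4, each with 1 TTCCCA or TGGGAA. An E-box was found in 66.2% of the 32851 promoter windows of the same length, and TTCCCA or TGGGAA in 21.6%. Slc26a3 also had 2 E-boxes, Aqp1 had 1 with 1 TTCCCA or TGGGAA, and Aqp5 had 1. Slc4a4 had 1 of each, in different windows, and the windows of Cftr, Slc26a6 and Slc4a2 held no E-box. The letters TATAAA (7.59% of all windows) and GTTAAT or its reverse ATTAAC (6.43%) were found in the window of Slc26a3 alone among the 9 genes. TATAAA was searched on the gene's strand alone, so its reverse was not counted, and the other letters were searched on both strands. A match is a description of these letters only.

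The genes around these transporters were read from 5 lists with 90 genes, of which 77 were tested. In the limma fit 25 were higher in clusters, 32 were lower and 20 did not pass, with a median log2 difference of -0.40. The same fit called 54.8% of all genes tested, with 28.2% lower and 26.6% higher. The counts of each list below stand beside these shares. Under normexp Ano1, Cckar, Kcnq1, Slc26a9 and P2ry1 differed by -7.46, -6.42, -5.43, -6.18 and 2.84, smaller folds than the bounds given for them here. Leaving out islets replicate 1 left 13 higher and 31 lower, and leaving out islets replicate 2 left 12 higher and 28 lower.

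The signals that drive duct secretion were mixed: of 20 genes tested 9 were higher in clusters, 7 lower and 4 did not pass (median -0.24). Sctr, the secretin receptor, lay at -1.94 and -2.12 in clusters and at -0.11 and -0.08 in islets, and was 3.82-fold lower in clusters (log2 -1.93 ± 0.23 SE, limma adjusted p = 8.63e-05). All 4 of its probes were lower, by -4.90 to -1.93, and the difference was -4.85 or -4.60 without clusters replicate 1 or 2, where another probe was the brightest. Sct, secretin itself, lay at -3.24 and -3.90 against -2.35 and -2.19 (difference -1.30, limma adjusted p = 0.00326, or -1.22 with 0.0769 without islets replicate 2), and its difference under normexp was -0.64. The cholecystokinin receptor Cckar was at least 537-fold lower in clusters. The VIP receptor Vipr1 and the muscarinic receptor Chrm3 were lower, with log2 differences of -6.14 and -4.04. The other Vipr1 probe differed by -1.78, and Chrm3 differed by -2.10 under normexp. In the other direction stood the adenosine receptor Adora2b (5.88), the adenylyl cyclase Adcy3 (4.41) and the purinergic receptor P2ry1, at least 44.1-fold higher in clusters. The other Adora2b probe differed by 2.53. Adcy3 was well above background on 1 of the 2 islet arrays and differed by 1.68 under normexp.

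Of 12 regulators of the transporters 3 were higher and 5 lower, while 4 did not pass (median -0.32). Ezr, the linker ezrin that ties membrane proteins to actin, lay at -0.39 and -0.57 in clusters and at 5.09 and 5.01 in islets, 46.2-fold lower in clusters. Slc9a3r1, the scaffold NHERF1 that binds CFTR, was 12.1-fold lower, and the kinase Wnk4 3.84-fold lower. The kinase Wnk1 was higher with all 3 probes, by 1.51 to 2.47, and Wnk4 differed by -1.20 under normexp against -1.94. Shank2, a scaffold of apical transporters, was higher by 0.99, and by 0.78, 0.84 and 1.15 with no call without clusters replicate 1, islets replicate 1 and islets replicate 2. It also had no call under normexp (0.37, limma adjusted p = 0.189) or with a replicate block (adjusted p = 0.0528). The calcium-dependent kinase Camk2d was higher by 0.98 with its brightest probe, but 2 of its 4 probes were lower, and the call was lost without clusters replicate 1 (0.94), islets replicate 1 (1.12) or islets replicate 2 (0.84).

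Of 21 other carriers and channels of acid, sodium, potassium and chloride tested, 6 were higher in clusters, 11 lower and 4 did not pass (median -1.32). Ano1, the calcium-activated chloride channel, lay at -6.82 and -7.21 in clusters and at 5.22 and 4.95 in islets, at least 1254-fold lower in clusters. The potassium channel Kcnq1 was at least 303-fold lower. Atp1b1, the beta subunit of the sodium pump, was 74.98-fold lower. Car2, the carbonic anhydrase that makes bicarbonate in duct cells, lay at -2.89 and -2.76 against 0.83 and 0.25, 10.3-fold lower in clusters (log2 -3.36 ± 0.27 SE, limma adjusted p = 5.12e-06). The potassium channel Kcnma1 was higher by 4.61, or by 1.15 with its probe that was well above background on all arrays and 2.29 under normexp. The sodium-proton exchanger Slc9a3 was at least 4.198-fold higher, but its fitted difference of 2.99 was 0.50 with no call under normexp (limma adjusted p = 0.0665). Lrrc8a, a subunit of volume-regulated anion channels, was higher by 1.26, and by 1.22 and 1.30 with no call without islets replicate 1 and 2. Its other probe differed by 0.0091 and did not pass, and the mean of its probes differed by 0.63.

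The other SLC4, SLC26 and SLC12 genes were split: of 18 tested 6 were higher and 5 lower, while 7 did not pass (median -0.16). Slc26a9, a chloride channel and transporter, lay at -5.47 and -7.28 in clusters and at 3.84 and 3.73 in islets, at least 510-fold lower in clusters. Slc12a8 was lower, with a log2 difference of -8.99, and the potassium chloride cotransporter Slc12a7 was 5.84-fold lower (log2 -2.55, and -0.82 with its other probe). Slc12a5, another cotransporter of potassium and chloride, was higher by 4.67 with its brighter probe and lower (-1.91) with the other, with a mean of 1.38. The cotransporter Slc12a1 was at least 1.82-fold higher, but its fitted difference of 2.56 was 0.11 with no call under normexp (limma adjusted p = 0.719). The sodium bicarbonate cotransporter Slc4a7 was higher by 2.21, but it passed under 6 of 17 alternatives, with no call without clusters replicate 1 (2.05), clusters replicate 2 (2.36) or islets replicate 1 (0.95).

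Among the other aquaporins 6 were tested: 4 were lower, 1 was higher and 1 did not pass (median -1.19). Aqp11, an intracellular aquaporin, lay at -2.10 and -2.38 in clusters and at 2.29 and 1.82 in islets, 19.6-fold lower in clusters, with both probes lower. Aqp7, which also passes glycerol, was 9.46-fold lower. Aqp6 was at least 1.80-fold lower, but passed under 5 of 16 alternatives, with no call without clusters replicate 2 (-0.91) or islets replicate 2 (-1.07), or under normexp (-0.38). Aqp3, another glycerol channel, was higher by 0.81, but passed under 10 of 17 alternatives. It did not pass when any 1 of the 4 arrays was left out, with values of 0.73 to 0.90, or under normexp (0.09).

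**Figure D3:**
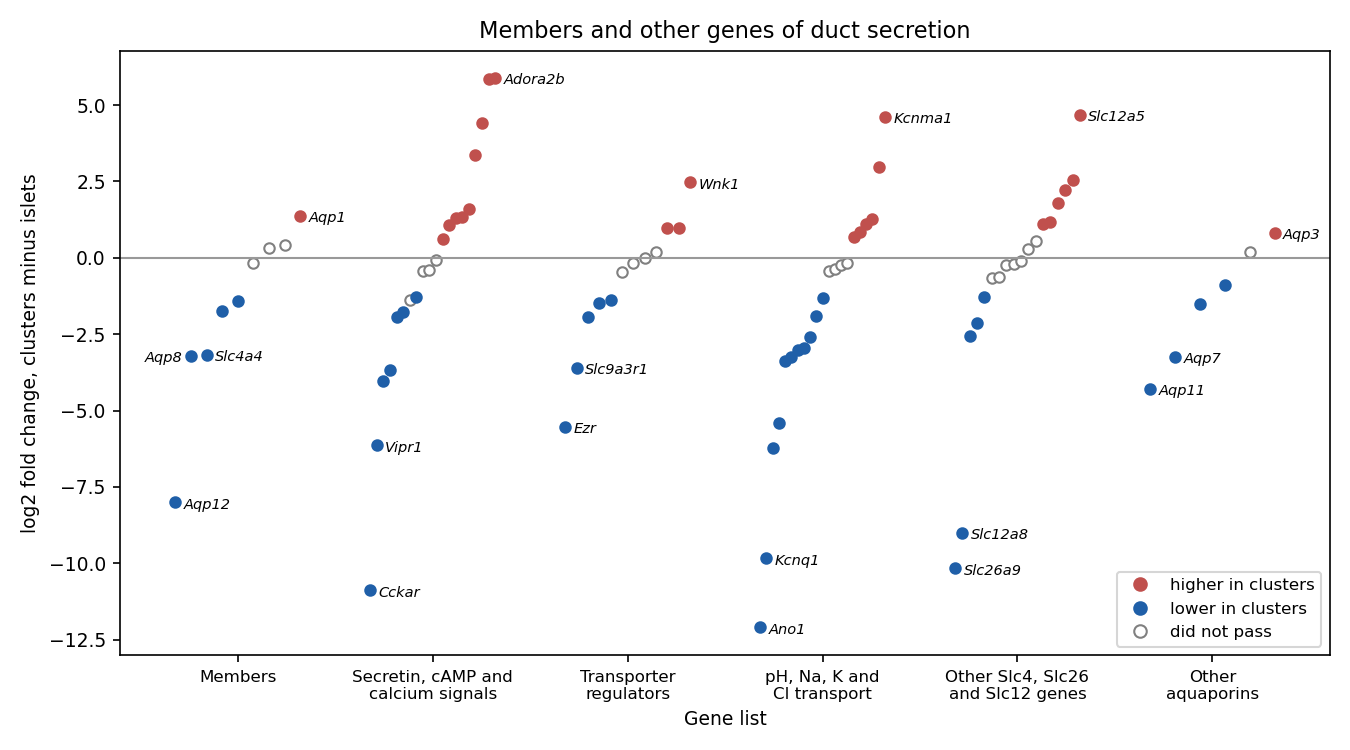
Difference between clusters and islets (y axis, log2 fold change) for the 9 tested genes, labelled Members, and for the 77 tested genes of the 5 other lists, in order of size within each list. Red and blue points passed the limma threshold as higher and lower in clusters and open points did not pass; each list holds both directions. Points of genes dim in 1 group, such as Ano1, Cckar and Aqp12, are fitted values, and only a bound is known for them.

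The 5 genes whose values lay nearest to those of Cftr over the 4 arrays were taken from 6944 other genes lower in clusters, by the root mean square distance after each gene was centred on its own mean. They were Kirrel2 at a distance of 0.142 on the log2 scale, Tmem69 at 0.166, Chadl at 0.197, Kif18a at 0.209 and Phactr2 at 0.237. With 4 arrays this is a description of likeness. They were chosen for the same pattern over the 4 arrays. By construction they therefore share with Cftr the gap between the cluster arrays and the gap between the islet arrays. Tmem69 and Kif18a were well above background on neither cluster array, Kirrel2 on 1 like Cftr, and Chadl and Phactr2 on both. Without clusters replicate 1 none was called, and they differed by -1.57 (Kif18a), -1.10 (Tmem69), -1.02 (Kirrel2), -0.97 (Chadl) and -0.79 (Phactr2). Kirrel2 and Phactr2 also lost the call without islets replicate 1 (-1.11 and -1.25).

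**Figure D4:**
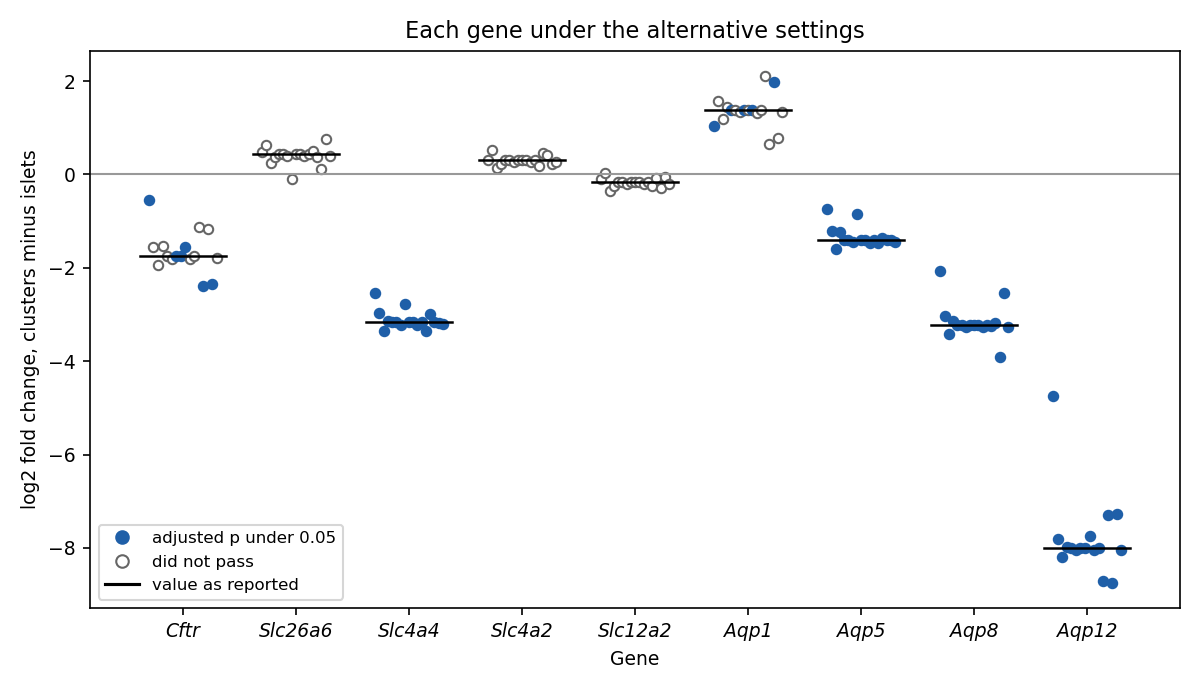
Difference between clusters and islets (y axis, log2 fold change) for each of the 9 tested genes under the alternative settings, filled where limma's adjusted p was under 0.05, with a line at the value reported. Slc4a4, Aqp5, Aqp8 and Aqp12 were filled throughout, Cftr under 6 of 16 settings and Aqp1 under 5 of 17.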

How the data were processed

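Per the file headers the deposited scanner files, made with Agilent Feature Extraction 11.5.1.1, hold spot intensity, background-subtracted and spatially detrended, with probe positions on mm9. The software's flags (codes without a unit) were used as deposited. The authors' value table holds log2 values, which correlated with the scanner values at r = 0.99995 or higher on each array and had a median difference of -0.0968 from the values used here on clusters replicate 1 and 0.00233 to 0.00847 on the other arrays. Its column medians were -3.61, -3.70, -3.50 and -3.37, it has no centring per gene, and it served as an alternative.

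From these files log2 intensity was averaged over a probe's spots without control and non-uniform spots (510 non-uniform on clusters replicate 1 against 2, 26 and 4), and the 75th percentile of each array over probes was subtracted. A first fit used the percentile over spots and called 4 of the genes. The percentile over probes, which the planned design names, replaced it after that fit had been seen. A probe entered the fit when both arrays of either group had it well above background (34974 probes), and the brightest probe stood for its gene. The comparison used lmFit and eBayes of limma 3.58.1 (R 4.3.3), 2-sided, with Benjamini-Hochberg adjustment and a threshold of 0.05. Residual degrees of freedom were 2, or 9.06 with the prior, and the number of arrays (4) limits the precision. All arrays were on 1 slide. The fit was tested on simulated data drawn from its own variance model, which checks the computation and not whether the model holds for these arrays. A gene dim on both arrays of a group has only a bound: the bright group's mean against, per array, either the probe's own signal or the lowest one still counted as well above background, whichever is higher.

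The genes, the lists and the tests were chosen with earlier results of these data known. Named genes were all 10 genes, Sctr, Sct and Car2, up to 3 called genes of each list per direction with the largest change, and the 5 nearest to Cftr. The samples share replicate numbers, and the replicate differences of clusters and islets correlated at r = -0.02 over genes. Each difference comes from 1 pair of arrays, so this cannot exclude that the numbers pair the samples. The fit reported treated them as unpaired, and a replicate block was an alternative.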

Additional observations from a re-analysis of the deposited data

How the results depend on the processing

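The 17 alternatives changed the background correction, scaling, filters, choice of probe, variance model or the arrays used, and 1 of them, the percentile over spots, was the first fit. The percentile over probes replaced it after seeing the data, and the spots then became an added alternative. The count of all genes called was 13490, and it was 7936 to 10072 when 1 array was left out, with 8588 (4185 higher, 4403 lower) without islets replicate 1 and 7936 (3939 higher, 3997 lower) without islets replicate 2. Of the 10 genes 6 were called, and 4 under 10 alternatives, 5 under 4 and 6 under 3, with 4 to 5 when 1 array was left out. The lost calls were of Cftr or Aqp1 in 22 instances, against 129 in which a gene kept its side of the threshold. The pathway genes called numbered 57, and 40 to 53 when 1 array was left out. With a replicate block the counts were 11307 for all genes, 4 for the 10 genes and 51 for the pathway genes. Camk2d turned from 0.98 to -0.27 (limma adjusted p = 0.397) with a gene's probes averaged. Of 36 other named genes 22 passed under every alternative that tested them. Scaling to the array median moved the median of all genes from -0.10 to 0.09, and a percentile over only the probes detected on all arrays moved it to -0.29. The total degrees of freedom of the fit were 9.06, 4.27 with the percentile over spots and 4.36 with non-uniform spots kept. Those 2 settings lost both Cftr and Aqp1, as did others, among them scaling by the array median or by quantiles. Total degrees of freedom were 49192 with normexp and with a variance trend and robust fit. They were 41702 when only probes detected on each array were kept, and 24995 and 25366 without islets replicate 1 and 2. With 1 array left out the lone array of a group is assumed to vary like those of the other group. Normexp reduced the fitted differences of dim genes, Cftr to -0.55, Aqp5 to -0.73 and Aqp12 to -4.75, and Aqp12 was not tested when probes had to be well above background on all arrays.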
